A study of Mus musculus with 24 samples.

Results

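The semaphorins are secreted or membrane-bound signalling proteins, and the plexins and neuropilins are their cell surface receptors. The protein-coding genes of the count table whose symbols, assigned from their Ensembl identifiers, belong to these families numbered 31 among 54232 listed genes. They were 20 semaphorins, 9 plexins and 2 neuropilins. Polyadenylated RNA had been sequenced in bulk from primary osteoblast cultures, prepared from pooled skull bones (calvariae) of newborn mice. The mice were wild type (WT) or of a high bone mass (HBM) line, whose allele is not given in the sources used here. Cultures were sampled at days 0, 10, 15 and 21 of osteoblast differentiation. Each of the 8 groups of genotype and day held 3 libraries, one for each of the batches that the labels number 18, 19 and 21, for 24 libraries in all. The labels describe 3 independent pooled cultures, and a batch number was taken to mark 1 culture followed through the days, although the labels leave this unstated. Such primary cultures also hold other cell types of the calvaria, and each culture mixes several animals.

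Semaphorins share an extracellular Sema domain that docks on the Sema domain of a plexin. The plexin's intracellular part inactivates small GTPases of the Ras and Rap families, which loosens adhesion to the matrix and reshapes the actin cytoskeleton. Class 3 semaphorins are secreted, and most of them need Nrp1 or Nrp2 as a co-receptor beside a class A plexin, whereas Sema3e binds Plxnd1 directly. Classes 4 to 6 cross the membrane, and Sema7a is held by a lipid anchor. In bone, Sema3a is known as an osteoblast product that favours bone formation through Nrp1, and Sema4d as an osteoclast product that acts on Plxnb1 of osteoblasts.

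Column totals ran from 28039095 to 46987734 counts. Of the 31 genes, 25 were above 1 CPM (a gene's counts scaled by the size of its library) in all 24 libraries, 5 in some of them and 1, Sema5b, in none. Sema5b had at most 9 counts in a library and did not pass the filter on low counts, so 30 genes were tested. The 7 osteoblast markers Col1a1, Runx2, Sp7, Alpl, Bglap, Ibsp and Spp1 summed to between 20592 and 118181 CPM, and none was at 0 in any group. WT and HBM libraries of a batch moved together, and tests that pair them are given where they change a call.

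The stretches before the start sites of 4 members are shown because 3 of them are neighbours on chromosome 5 that moved in opposite directions and the fourth is the receptor of one of them. Sema3d and Sema3a lie 0.536 Mb apart with 0 protein-coding genes between them, and Sema3a and Sema3e lie 0.423 Mb apart with 1 between them. Each line gives the 250 bases before the RefSeq start, 5′ to 3′ on the gene's strand, in build GRCm38.p6 (mm10), and capitals mark a match to a searched motif.
Sema3d, chr5:12382916-12383165, plus strand: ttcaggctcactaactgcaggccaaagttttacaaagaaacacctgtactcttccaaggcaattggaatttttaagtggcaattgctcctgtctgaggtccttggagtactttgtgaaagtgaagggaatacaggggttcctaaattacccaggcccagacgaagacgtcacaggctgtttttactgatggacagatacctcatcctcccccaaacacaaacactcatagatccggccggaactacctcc
Sema3a, chr5:13396534-13396783, plus strand: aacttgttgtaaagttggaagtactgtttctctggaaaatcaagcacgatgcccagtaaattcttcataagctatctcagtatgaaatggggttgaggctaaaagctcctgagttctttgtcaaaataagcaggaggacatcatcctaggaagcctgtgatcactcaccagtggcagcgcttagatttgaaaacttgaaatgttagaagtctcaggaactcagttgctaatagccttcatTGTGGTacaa
Sema3e, chr5:14025026-14025275, plus strand: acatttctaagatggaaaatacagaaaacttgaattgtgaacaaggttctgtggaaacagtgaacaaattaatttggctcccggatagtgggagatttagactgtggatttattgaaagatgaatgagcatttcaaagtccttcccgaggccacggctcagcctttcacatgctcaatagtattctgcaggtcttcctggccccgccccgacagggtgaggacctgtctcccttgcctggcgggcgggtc
Plxnd1, chr6:115995006-115995255, minus strand: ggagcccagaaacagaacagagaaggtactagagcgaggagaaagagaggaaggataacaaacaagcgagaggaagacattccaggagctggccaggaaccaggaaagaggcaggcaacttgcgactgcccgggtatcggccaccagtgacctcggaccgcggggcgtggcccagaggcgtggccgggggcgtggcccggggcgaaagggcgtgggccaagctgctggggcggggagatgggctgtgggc
The start of Sema3a in RefSeq lies inside the longer GENCODE gene (chr5:13125414-13602565), in a part that no GENCODE exon covers. The motifs searched on both strands were TGTGGT (the core bound by RUNX factors such as Runx2), TGANTCA (the AP-1 site), TATAAA (the TATA box) and TGACGTCA (the cyclic AMP response element). The single match was TGTGGT in Sema3a, starting 10 bases before the start. In windows of 300 bases, which add 50 bases after the start, TGTGGT occurred in 16.76% of all 32851 RefSeq promoters and in 5 of the 37 promoters of the 26 members with an entry. TGANTCA occurred in 7.808% of all and in 3 of the 37. TATAAA (13.62% of all) and TGACGTCA (1.79% of all) occurred in 0 of the 37. GC content ran from 40.8% in the Sema3a stretch to 64.8% in that of Plxnd1.

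Levels were compared between genes as CPM per kilobase of merged exons, a measure that understates genes with many alternative exons. Plxnb2, a broadly expressed plexin, stood highest in WT cultures at day 0 with 80.8 ± 27.9 CPM per kilobase (mean ± SD, n = 3). The class A plexin Plxna1 followed with 46.6 ± 20.4, the secreted Sema3c with 45.2 ± 25.2 and the co-receptor Nrp2 with 19.9 ± 12.6. Sema3a came next with 13.7 ± 3.97, and Sema3e with 13.3 ± 6.76. Neighbours in the whole order differed by less than the sum of their SDs, except Sema7a (11.4 ± 2.79) above Plxna3 (6.33 ± 2.22) and Sema3f (2.96 ± 0.553) above Sema6c (1.55 ± 0.549). At WT day 21 the order was Plxnb2 (68.7 ± 6.87), Sema3c (48.8 ± 21.1), Nrp2 (31.99 ± 8.94), Plxna1 (31.2 ± 3.77), Sema3b (28.8 ± 5.99) and Plxnd1 (17.7 ± 2.91), and Sema3e was near the bottom at 0.452 ± 0.402. The lowest tested member was Plxnb3 in every group, with at most 43 counts in a library.

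**Figure D1:**
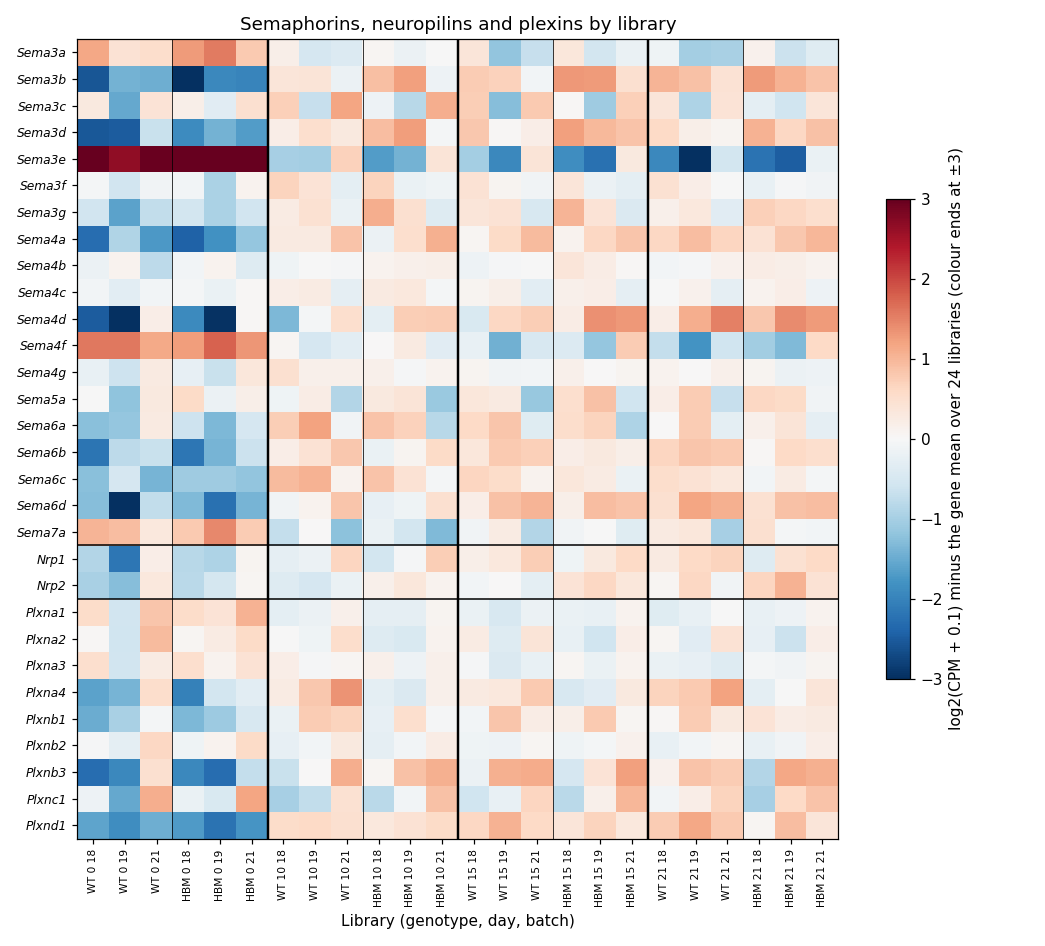
Each cell is log2(CPM + 0.1) of 1 gene (30 tested members) in 1 of 24 libraries minus that gene's mean over the libraries, with libraries ordered by day, genotype and batch. The 6 day 0 libraries at the left stand apart, with Sema3e, Sema3a, Sema4f and Sema7a high and Sema3b, Sema3d, Sema4a and Plxnd1 low.

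The first comparison asked how the families changed over the first 10 days of differentiation, within each genotype. In WT cultures 10 of the 30 tested members rose and 3 fell, where 26.1% of all 16592 tested genes passed the same test, 12.1% rising and 14.0% falling. In HBM cultures 10 rose and 5 fell, where 26.5% of all genes passed, 14.1% rising and 12.4% falling. The median log2 change of the tested members was 0.60 in WT and 0.50 in HBM, where the medians over all genes were -0.02 and 0.00 to 2 decimals. Members that rose in both genotypes were the secreted Sema3b, Sema3d and Sema3g, the membrane semaphorins Sema4a, Sema6b, Sema6c and Sema6d, and the receptors Plxnb1 and Plxnd1. Sema3e, Sema4f and Sema7a fell in both. Plxna4 passed the test in WT alone, and Plxnb3, Plxna1 and Sema3a in HBM alone, but no member's change differed between the genotypes by a test of that difference, as given further on.

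A fit that blocked on the culture called 12 rising and 4 falling members in WT, where 38.4% of all genes passed (19.6% rising, 18.8% falling). In HBM it called 11 rising and 6 falling members, where 38.2% passed (20.5% rising, 17.7% falling). Fitting the compared groups alone left 4 calls in WT and 11 in HBM, and leaving out batch 18 from the whole fit left 4 and 6. No share of all genes is given beside these counts, so they show how calls depend on the fit and not a trait of the members. Plxnd1 in both genotypes and Sema3b, Sema3d and Sema4a in HBM passed the test as first fitted and in all 14 alternatives.

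**Figure D2:**
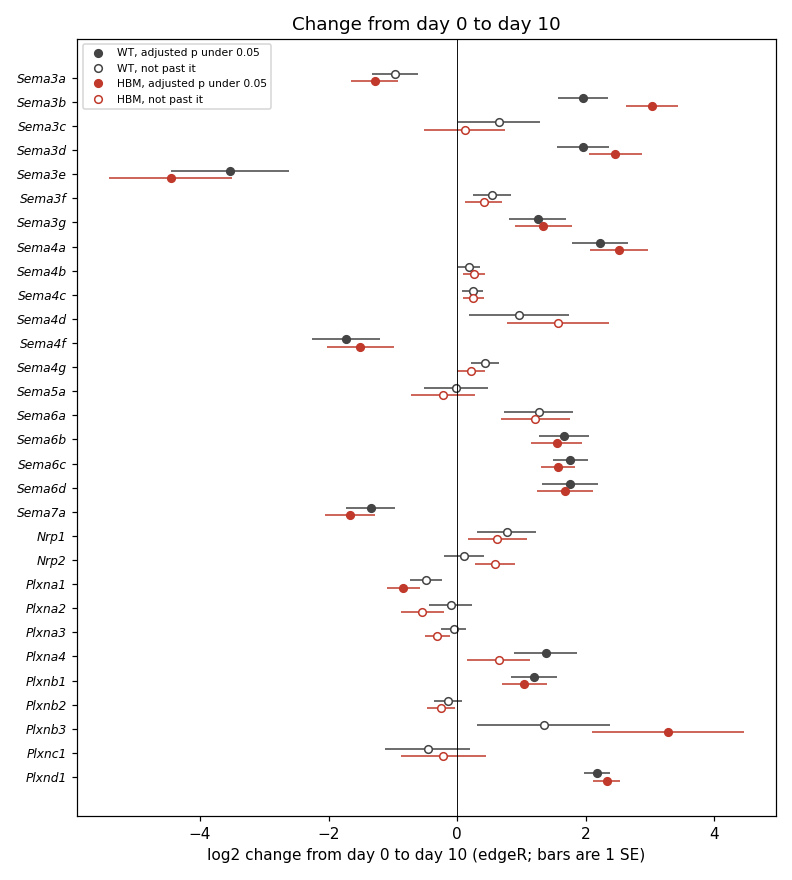
Points are log2 changes from day 0 to day 10 (x axis, no unit) of the 30 tested members in WT (dark) and HBM (red), from 3 libraries a group, with bars of 1 SE, and filled points passed an adjusted p of 0.05. Sema3e lies farthest left, at -3.53 in WT and -4.46 in HBM, and Plxnd1 has short bars at 2.18 and 2.33.

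Among the secreted class 3 ligands, Sema3e, the repellent that signals through Plxnd1, fell the most. It stood at 195, 78.6 and 96.9 CPM in WT batches 18, 19 and 21 at day 0 and at 6.06, 5.97 and 19.97 CPM at day 10. In HBM the values were 221, 164 and 149.7 at day 0 and 3.76, 4.496 and 16.004 at day 10. The highest of the 18 later libraries (19.97 CPM) was below the lowest day 0 library, and batch 21 was the highest at days 10, 15 and 21 in both genotypes. Sema3e fell 11.6-fold in WT (log2 change -3.53 ± 0.92, adjusted p = 0.00905) and 21.98-fold in HBM (-4.46 ± 0.96, adjusted p = 0.00268). Leaving out batch 18 or batch 19 from the whole fit ended the WT call (adjusted p = 0.2 and 0.0614), and leaving out batch 18 ended the HBM call (adjusted p = 0.104).

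Sema3a, the ligand of Nrp1 with class A plexins, stood at 253, 152 and 163 CPM in WT at day 0 and 127, 78.8 and 85.1 CPM at day 10. HBM libraries of Sema3a stood at 272, 334 and 195 CPM and then 117, 100.3 and 112 CPM. All 18 later libraries lay below the lowest day 0 library, and the level was lower at day 10 in 6 of 6 cultures. In HBM Sema3a fell 2.44-fold (log2 change -1.28 ± 0.36, adjusted p = 0.0151), a call that was lost without HBM day 0 batch 19 or HBM day 10 batch 19 (adjusted p = 0.0613 and 0.0567). Sema3a did not pass in HBM without batch 19 or without batch 21 (adjusted p from 0.0709 to 0.116). In WT the log2 change was -0.97 ± 0.36 with adjusted p = 0.0556, and it passed when the fit blocked on the culture (adjusted p = 0.00207) and in DESeq2 (adjusted p = 0.04).

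Sema3b, a secreted ligand that acts mainly through Nrp2, rose. It stood at 13.2, 29.3 and 28.3 CPM in WT at day 0 and 101, 103 and 69.8 CPM at day 10, and in HBM at 8.82, 20.6 and 19.8 CPM and 147, 185 and 70.6 CPM. The day 0 and later libraries did not overlap, and batch 21 was the lowest at day 10 in both genotypes. Sema3b rose 3.88-fold in WT (log2 change 1.95 ± 0.39, adjusted p = 0.00161) and 8.19-fold in HBM (3.03 ± 0.41, adjusted p = 7.74e-05). Sema3b did not pass in WT without batch 18 (adjusted p = 0.0629).

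Sema3d, another secreted class 3 ligand, went from 4.04, 4.18 and 15.1 CPM to 27.5, 33.8 and 29.6 CPM in WT. In HBM it went from 6.42, 8.91 and 7.402 CPM to 45.7, 56.8 and 22.9 CPM. The lowest day 10 library exceeded the highest day 0 library, and WT batch 21 was the highest at day 0. Sema3d rose 3.897-fold in WT (log2 change 1.96 ± 0.41, adjusted p = 0.00209) and 5.51-fold in HBM (2.46 ± 0.41, adjusted p = 0.000442). Sema3d did not pass in WT with the compared groups fitted alone, without batch 18 or without batch 19 (adjusted p from 0.0645 to 0.0967). Its neighbours Sema3a and Sema3e, whose start regions are printed above, were lower in every culture over the same interval.

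Sema3g, a class 3 ligand known from blood vessels, was scarce, with 8 to 84 counts in a library. It stood at 0.568, 0.227 and 0.501 CPM in WT at day 0 and 1.09, 1.27 and 0.763 CPM at day 10, and in HBM at 0.573, 0.416 and 0.564 CPM and 2.0001, 1.29 and 0.658 CPM. The groups did not overlap, but batch 21 was close to the day 0 values at day 10. Sema3g rose 2.39-fold in WT (log2 change 1.26 ± 0.45, adjusted p = 0.0451) and 2.54-fold in HBM (1.34 ± 0.44, adjusted p = 0.0323). The WT call was lost without any of 4 single libraries (WT day 0 batch 19, WT day 0 batch 21, WT day 10 batch 18, WT day 10 batch 19; adjusted p from 0.0539 to 0.153), and the HBM call without any of 5 single libraries (HBM day 0 batch 18, HBM day 0 batch 19, HBM day 0 batch 21, HBM day 10 batch 18, HBM day 10 batch 19; adjusted p from 0.0547 to 0.19). Sema3g did not pass in WT without the filter on low counts, with the compared groups fitted alone, without batch 18 or without batch 19 (adjusted p from 0.0816 to 0.413), nor in HBM without the filter on low counts, with the compared groups fitted alone, without batch 18 or without batch 19 (adjusted p from 0.0567 to 0.34).

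Sema3c, the class 3 semaphorin with the highest level per kilobase, varied mostly between batches. In WT it stood at 407, 116 and 445 CPM at day 0 and 551, 208 and 761 CPM at day 10, and in HBM at 375, 264 and 466 CPM and 301, 188 and 709 CPM. Batch 19 was the lowest of the 3 batches in all 8 groups. The log2 change was 0.65 ± 0.64 in WT (adjusted p = 0.476), which passed when the fit blocked on the culture (0.69 ± 0.20, adjusted p = 0.015), and 0.12 ± 0.64 in HBM (adjusted p = 0.911). Sema3f, the Nrp2 ligand beside Sema3b on chromosome 9, ran from 9.35 to 19.4 CPM at day 0 and from 14.7 to 28.7 CPM at day 10, and these overlapped.

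The summed level of class 3 did not move as far as its make-up. The 7 genes together stood at 81.1 ± 31.7 CPM per kilobase in WT at day 0 and 106 ± 36.3 at day 10 (SD, n = 3). Within that sum, Sema3e held 16.8% ± 5.12 at WT day 0, 1.04% ± 0.515 at day 10 and 0.476% ± 0.408 at day 21. Sema3a held 18.2% ± 6.15, 6.98% ± 2.17 and 5.65% ± 1.23 at the same days. The share of Sema3b was 7.54% ± 5.64, 20.6% ± 11.2 and 33.2% ± 11.6 in WT, and 3.599% ± 1.63, 30.4% ± 17.9 and 37.7% ± 8.404 in HBM. Sema3c kept the largest mean share in all 8 groups, from 45.2% to 62.9%. This order did not hold in every culture, as Sema3b reached 51.7% in an HBM library at day 15. Shares add up to a whole, so a rise of one member lowers the others.

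**Figure D3:**
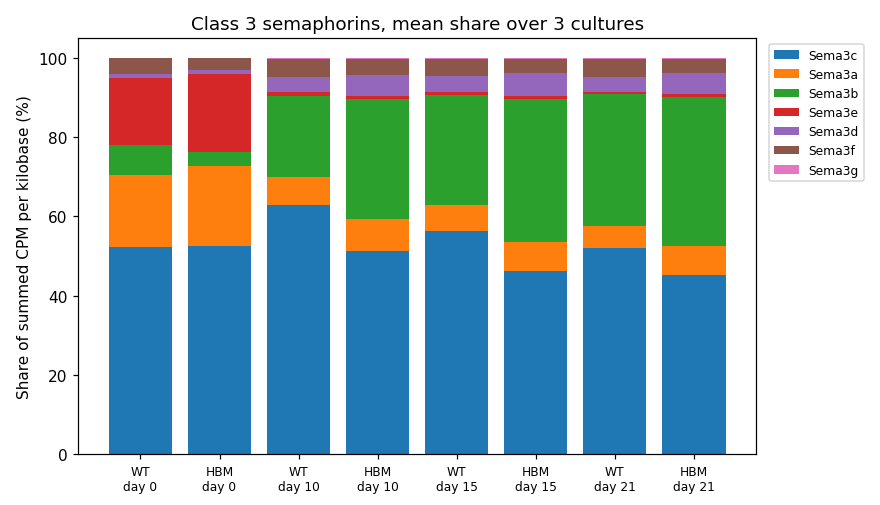
Bars show each class 3 semaphorin's share (y axis, percent) of the summed CPM per kilobase, as the mean of 3 cultures for each genotype and day. Sema3e takes 16.8% at WT day 0 and 19.8% at HBM day 0 and about 1% or less later, while Sema3b takes 7.54% and 3.60% at day 0 and 33.2% and 37.7% at day 21.

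Of the membrane-bound classes, 4 members rose and 2 fell in each genotype. Classes 4, 5, 6 and 7 hold 6, 2, 4 and 1 members, and all but Sema5b were tested. Of all genes 12.1% rose and 14.0% fell in WT, and 14.1% and 12.4% in HBM. Sema4a, a class 4 semaphorin known mainly from immune cells, was scarce: it stood at 0.2499, 0.824 and 0.417 CPM in WT at day 0 and 1.97, 1.98 and 3.002 CPM at day 10. HBM libraries of Sema4a stood at 0.218, 0.3896 and 0.664 CPM and 1.43, 2.32 and 3.502 CPM, with batch 21 the highest at day 10 in both genotypes. Day 0 and day 10 did not overlap. Sema4a rose 4.67-fold in WT (log2 change 2.22 ± 0.44, adjusted p = 0.00156) and 5.72-fold in HBM (2.52 ± 0.45, adjusted p = 0.000735). Sema4a did not pass in WT with the compared groups fitted alone (adjusted p = 0.071).

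Sema6b, a class 6 ligand of plexins A2 and A4, stood at 0.454, 1.36 and 1.502 CPM in WT at day 0 and 2.82, 3.33 and 4.35 CPM at day 10. HBM libraries of Sema6b stood at 0.464, 0.857 and 1.53 CPM and 2.095, 2.56 and 3.67 CPM, without overlap between the days. Sema6b rose 3.17-fold in WT (log2 change 1.66 ± 0.39, adjusted p = 0.00516) and 2.93-fold in HBM (1.55 ± 0.40, adjusted p = 0.00815). Sema6b did not pass in WT with the compared groups fitted alone or without batch 19 (adjusted p from 0.0651 to 0.12), nor in HBM with the compared groups fitted alone or without batch 19 (adjusted p from 0.0855 to 0.105). Sema6c, the most abundant class 6 member per kilobase, stood at 7.68, 12.96 and 7.01 CPM and then 35.98, 37.9 and 19.7 CPM in WT. In HBM Sema6c stood at 8.82, 8.804 and 8.07 CPM and 33.5, 25.04 and 17.8 CPM, so that every day 10 library lay above every day 0 library and batch 21 was the lowest at day 10. Sema6c rose 3.38-fold in WT (log2 change 1.76 ± 0.27, adjusted p = 0.000216) and 2.97-fold in HBM (1.57 ± 0.27, adjusted p = 0.000518). Sema6c did not pass in WT with the compared groups fitted alone (adjusted p = 0.0537), nor in HBM without batch 18 (adjusted p = 0.0537).

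Sema6d, a ligand of Plxna1, stood at 5.59, 1.59 and 8.09 CPM in WT at day 0 and 12.6, 14.6 and 24.4 CPM at day 10. HBM libraries of Sema6d stood at 5.35, 2.805 and 5.14 CPM and 11.4, 12.5 and 18.9 CPM, and the days did not overlap. Sema6d rose 3.38-fold in WT (log2 change 1.76 ± 0.43, adjusted p = 0.00673) and 3.22-fold in HBM (1.69 ± 0.44, adjusted p = 0.00869). Sema6d did not pass in WT with the compared groups fitted alone, without batch 18 or without batch 19 (adjusted p from 0.0528 to 0.144), nor in HBM without batch 18 or without batch 21 (adjusted p from 0.0596 to 0.0731). Sema6a, also of class 6, had a log2 change of 1.27 ± 0.53 in WT (adjusted p = 0.0859) and 1.22 ± 0.54 in HBM (adjusted p = 0.1). It was higher at day 10 in batches 18 and 19 and lower in batch 21, in both genotypes.

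Sema7a, the lipid-anchored semaphorin that binds integrins and Plxnc1, fell. It stood at 44.1, 41.6 and 27.1 CPM in WT at day 0 and 13.1, 22.04 and 9.16 CPM at day 10, and in HBM at 37.8, 59.1 and 37.2 CPM and 18.9, 14.8 and 8.601 CPM. The days did not overlap. Sema7a fell 2.55-fold in WT (log2 change -1.35 ± 0.39, adjusted p = 0.0165) and 3.17-fold in HBM (-1.66 ± 0.39, adjusted p = 0.00491). The WT call was lost without any of 3 single libraries (WT day 0 batch 18, WT day 10 batch 18, WT day 10 batch 21; adjusted p from 0.052 to 0.0741). Sema7a did not pass in WT with the compared groups fitted alone or without batch 18 (adjusted p from 0.0966 to 0.229), nor in HBM without batch 18 or without batch 19 (adjusted p from 0.0586 to 0.072).

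Sema4f, a class 4 member described mainly in the nervous system, stood at 6.41, 6.395 and 4.67 CPM in WT at day 0 and 2.15, 1.44 and 1.65 CPM at day 10. HBM libraries of Sema4f stood at 5.11, 7.298 and 5.31 CPM and 2.095, 2.53 and 1.62 CPM, again without overlap. Sema4f fell 3.33-fold in WT (log2 change -1.73 ± 0.53, adjusted p = 0.0223) and 2.84-fold in HBM (-1.504 ± 0.53, adjusted p = 0.0416). The WT call was lost without any of 3 single libraries (WT day 0 batch 18, WT day 10 batch 19, WT day 10 batch 21; adjusted p from 0.0523 to 0.0814). The HBM call was lost without any of 6 single libraries (HBM day 0 batch 18, HBM day 0 batch 19, HBM day 0 batch 21, HBM day 10 batch 18, HBM day 10 batch 19, HBM day 10 batch 21; adjusted p from 0.054 to 0.124). Sema4f did not pass in WT without batch 18 or without batch 19 (adjusted p from 0.0812 to 0.179), nor in HBM without the filter on low counts, without batch 18, without batch 19 or without batch 21 (adjusted p from 0.0599 to 0.245).

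Sema4d, known as an osteoclast product that signals through Plxnb1, did not pass the test. Its levels were 2.29, 1.251 and 15.5 CPM in WT at day 0 and 5.21, 12.8 and 18.95 CPM at day 10, and 3.47, 1.64 and 13.8 CPM and 10.95, 22.2 and 22.7 CPM in HBM. Batch 21 stood well above the other batches at day 0, so the days overlapped, although day 10 was higher in 6 of 6 cultures. The log2 change was 0.96 ± 0.78 in WT (adjusted p = 0.384) and 1.57 ± 0.79 in HBM (adjusted p = 0.154), and the HBM change passed when the fit blocked on the culture (1.73 ± 0.58, adjusted p = 0.0295). The remaining tested members of classes 4 and 5, Sema4b, Sema4c, Sema4g and Sema5a, had log2 changes between -0.22 and 0.43 and passed in neither genotype.

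Of the receptors, Plxnd1, the plexin that binds Sema3e directly, had the clearest change. It stood at 22.9, 18.6 and 24.9 CPM in WT at day 0 and 100.5, 104 and 95.6 CPM at day 10, and in HBM at 20.8, 14.5 and 20.05 CPM and 84.6, 91.9 and 101 CPM. Every later library, the lowest at 70.9 CPM, lay above every day 0 library. Plxnd1 rose 4.53-fold in WT (log2 change 2.18 ± 0.21, adjusted p = 5.39e-06) and 5.01-fold in HBM (2.33 ± 0.21, adjusted p = 2.91e-06). Over the same days its ligand Sema3e moved the other way in 6 of 6 cultures, and Plxnd1's share of the summed plexin CPM per kilobase was 2.14% ± 0.502 at WT day 0, 9.86% ± 1.83 at day 10 and 12.7% ± 1.96 at day 21. In bulk RNA, fewer cells of a type and less RNA per cell cannot be told apart.

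Plxnb1, the receptor of Sema4d, stood at 18.02, 25.8 and 48.2 CPM in WT at day 0 and 43.96, 85.4 and 80.8 CPM at day 10. HBM libraries of Plxnb1 stood at 19.7, 23.6 and 36.01 CPM and 42.9, 71.8 and 49.2 CPM. The WT days overlapped through the high day 0 library of batch 21, and the HBM days did not overlap. Plxnb1 rose 2.28-fold in WT (log2 change 1.19 ± 0.36, adjusted p = 0.0204) and 2.07-fold in HBM (1.05 ± 0.36, adjusted p = 0.0369). The WT call was lost without any of 4 single libraries (WT day 0 batch 18, WT day 0 batch 19, WT day 10 batch 19, WT day 10 batch 21; adjusted p from 0.0627 to 0.0895), and the HBM call without any of 3 single libraries (HBM day 0 batch 18, HBM day 0 batch 19, HBM day 10 batch 19; adjusted p from 0.109 to 0.14). Plxnb1 did not pass in WT with the compared groups fitted alone, without batch 18 or without batch 19 (adjusted p from 0.0868 to 0.174), nor in HBM without the filter on low counts, with the compared groups fitted alone, without batch 18 or without batch 19 (adjusted p from 0.0552 to 0.254). An exon of the gene Gm7628 on the other strand overlaps Plxnb1, and the strand setting of the counting is not given in the sources used here.

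Plxna4, a receptor for class 3 and class 6 ligands, stood at 1.68, 1.96 and 7.62 CPM in WT at day 0 and 6.295, 9.29 and 13.7 CPM at day 10. HBM libraries of Plxna4 stood at 1.23, 3.56 and 4.22 CPM and 4.29, 3.91 and 5.88 CPM, and the days overlapped in both genotypes. It rose 2.5998-fold in WT (log2 change 1.38 ± 0.49, adjusted p = 0.0469), while in HBM the log2 change was 0.65 ± 0.49 (adjusted p = 0.352). The WT call was lost without any of 4 single libraries (WT day 0 batch 18, WT day 0 batch 19, WT day 10 batch 19, WT day 10 batch 21; adjusted p from 0.0845 to 0.169). Plxna4 did not pass in WT without the filter on low counts, with the compared groups fitted alone, without batch 18 or without batch 19 (adjusted p from 0.0714 to 0.324). Plxna4os3, on the opposite strand, overlaps an exon of Plxna4.

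Plxna1, the second most abundant plexin, stood at 474, 216 and 575 CPM in WT at day 0 and 265, 284 and 357 CPM at day 10. HBM libraries of Plxna1 stood at 474, 428 and 663 CPM and 268, 269 and 339 CPM. The WT day 0 library of batch 19 was the lowest of all, and the HBM days did not overlap. Plxna1 fell 1.79-fold in HBM (log2 change -0.84 ± 0.255, adjusted p = 0.0219), and the WT change was -0.48 ± 0.253 (adjusted p = 0.169). The HBM call was lost without any of 3 single libraries (HBM day 0 batch 21, HBM day 10 batch 18, HBM day 10 batch 19; adjusted p from 0.0746 to 0.0956). Plxna1 did not pass in HBM without batch 18 or without batch 21 (adjusted p from 0.0738 to 0.229). Gm26811, on the other strand, overlaps exons of Plxna1.

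Plxna2, a class A plexin, stood at 52.2, 33.8 and 98.5 CPM in WT at day 0 and 50.9, 47.03 and 74.1 CPM at day 10. HBM libraries of Plxna2 stood at 53.3, 61.3 and 76.8 CPM and 39.3, 37.4 and 54.9 CPM, with batch 21 the highest in all 4 of these groups. Its log2 change in HBM was -0.54 ± 0.34 (adjusted p = 0.253), which passed when the fit blocked on the culture (adjusted p = 0.011), and in WT it was -0.10 ± 0.34 (adjusted p = 0.849). Plxnb3, the rarest plexin, had 7 counts in all in the HBM day 0 libraries and 83 at day 10. Its levels were 0.0273, 0 and 0.199 CPM and 0.405, 0.793 and 0.917 CPM in HBM, and 0, 0.0284 and 0.584 CPM and 0.207, 0.391 and 0.941 CPM in WT. It passed in HBM (adjusted p = 0.0479) but not without any of 5 single libraries (HBM day 0 batch 18, HBM day 0 batch 19, HBM day 10 batch 18, HBM day 10 batch 19, HBM day 10 batch 21; adjusted p from 0.0579 to 0.151). Plxnb3 did not pass in HBM without the filter on low counts, with the compared groups fitted alone, without batch 18 or without batch 19 (adjusted p from 0.0725 to 0.286). Plxna3, Plxnb2 and Plxnc1 had log2 changes between -0.46 and -0.05 and passed in neither genotype.

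Neither co-receptor passed the test as first fitted. Nrp1, which binds Sema3a and vascular endothelial growth factor, stood at 48.8, 19.7 and 104 CPM in WT at day 0 and 73.96, 79.7 and 139 CPM at day 10. HBM libraries of Nrp1 stood at 50.5, 47.3 and 94.1 CPM and 60.7, 86.8 and 149 CPM. Batch 21 was the highest at both days and the days overlapped, although day 10 was higher in 6 of 6 cultures. The log2 change was 0.77 ± 0.46 in WT (adjusted p = 0.228), which passed when the fit blocked on the culture (0.88 ± 0.30, adjusted p = 0.0323) and when WT batch 21 at day 0 was left out (adjusted p = 0.0185). In HBM it was 0.63 ± 0.46 (adjusted p = 0.333). Nrp2 had log2 changes of 0.11 ± 0.31 in WT and 0.59 ± 0.31 in HBM and passed in neither.

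**Figure D4:**
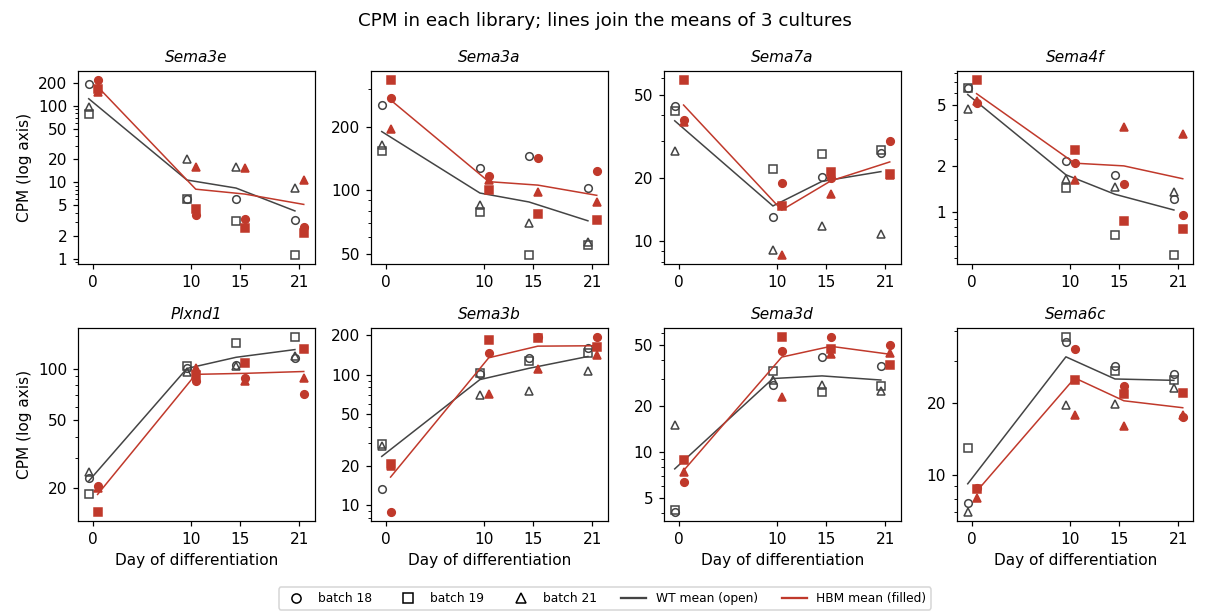
Panels show CPM (log axis) against day of differentiation for 8 members in each library, with WT open and dark, HBM filled and red, batches as shapes and lines joining the means of 3 cultures. The 4 upper genes drop between day 0 and day 10 and the 4 lower genes climb, with Plxnd1 at 14.5 to 24.9 CPM at day 0 and 70.9 CPM or more later.

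Markers of other cell types also differed between day 0 and day 10. The 10 macrophage markers summed to 57.5 to 1371 CPM in WT and 44.0 to 1102 CPM in HBM at day 0, and to 2674 to 9147 CPM and 1573 to 11815 CPM at day 10, with batch 21 the highest at both days and none at 0. Of these, 3 passed as rising in each genotype, and 10 with the block. The 8 osteoclast markers, of which Calcr was at 0 in these groups, summed to 146 to 255 CPM in WT and 146 to 179.9 CPM in HBM at day 0, and to 271 to 499 CPM and 337 to 565 CPM at day 10, with 3 rising in WT and 4 in HBM among 7 tested. The 8 adipocyte markers summed to 21.7 to 70.3 CPM in WT and 22.3 to 52.9 CPM in HBM at day 0, and to 292 to 496 CPM and 370 to 646 CPM at day 10, with Plin1 at 0 in the HBM day 0 group, and 4 rose in WT and 7 in HBM. The 8 endothelial markers summed to 0.625 to 7.95 CPM over all libraries, with Cldn5 and Tie1 at 0 in every group. The 7 chondrocyte markers summed to 1338 to 16552 CPM in WT and 858 to 9008 CPM in HBM at day 0, highest in batch 19, and to 965 to 4152 CPM and 726 to 1586 CPM at day 10, and 1 rose in each genotype. The 8 neural and Schwann markers summed to 137 to 284 CPM in WT and 192 to 426 CPM in HBM at day 0, and to 116 to 157 CPM and 125 to 144 CPM at day 10. Of 7 tested, 1 rose and 2 fell in WT, and 1 rose and 1 fell in HBM. These marker counts are to be read against all genes, of which 12.1% rose and 14.0% fell in WT and 14.1% and 12.4% in HBM. With the block 19.6% rose in WT and 20.5% in HBM. The part of these cell types in the members' changes was not tested. Without the WT day 0 library of batch 19, 11 members passed in WT, 10 of them among the 13 called with it. That fit kept the other libraries with chondrocyte markers, such as HBM day 0 of batch 19 with 9008 CPM, and its share of all genes is not given. It shows how the calls depend on 1 library and does not test the part of chondrocytes.

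Between day 10 and day 21 no member passed in either genotype in edgeR, with or without the culture as a block, or in DESeq2, and 0 members had an unadjusted p under 0.05 without the block in either genotype. Without the block 0% of all genes passed, and DESeq2 called 0.0948% in WT and 0.00962% in HBM. With the block 0.542% passed in WT and 0.0964% in HBM, and 6 and 1 members had an unadjusted p under 0.05. Sema3e stood at 3.16, 1.105 and 8.34 CPM in WT and 2.58, 2.14 and 10.6 CPM in HBM at day 21, and it was lower than at day 10 in 6 of 6 cultures (log2 change -1.35 ± 0.87 in WT and -0.66 ± 0.86 in HBM). Sema7a stood at 26.4, 27.4 and 10.8 CPM in WT and 30.3, 20.9 and 20.6 CPM in HBM at day 21, higher than at day 10 in 6 of 6 cultures (log2 change 0.54 ± 0.38 and 0.76 ± 0.38). Sema4d stood at 15.2, 28.8 and 38.1 CPM in WT and 23.6, 36.04 and 32.5 CPM in HBM at day 21, with log2 changes of 1.15 ± 0.78 and 0.72 ± 0.77. It too was higher than at day 10 in 6 of 6 cultures, as were Nrp2, Sema5a and Sema6d, while Sema4c and Sema4g were lower in 6 of 6.

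The second comparison set HBM against WT. On single days no member passed in edgeR, with or without a batch block, or in DESeq2. Without the block, and in DESeq2, 0% of all genes passed on each day, and with it 0.121% passed at day 0, 1.29% at day 10, 0.307% at day 15 and 0.247% at day 21. At an unadjusted p under 0.05 and without the block, 0 members stood out at days 0 and 15, 1 (Plxna4, lower in HBM) at day 10 and 1 (Plxnd1, lower in HBM) at day 21.

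Counts summed over days 10, 15 and 21 of each culture gave 1 further comparison of the genotypes. Without pairing, 0 members and 0% of all 17728 genes passed in edgeR, with 4 members at an unadjusted p under 0.05, and DESeq2 called 0.384% of all genes and 0 members. With the batch as a block, 4 members were higher and 3 lower in HBM, where 2.87% of all genes passed, 1.65% higher and 1.22% lower. All 7 calls therefore rest on the pairing by batch. With 2 batches left, the block called 8 members without batch 18, 0 without batch 19 and 0 without batch 21. The share of all genes called in each of these fits is not given, so the counts cannot be read as a trait of the members. The 7 estimates kept their direction in these fits. Each of the 7 had the same direction in all 3 batches, so this was largely fixed in advance.

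Nrp2, the co-receptor of Sema3b, Sema3c and Sema3f, stood at 293, 335 and 283 CPM in the summed WT cultures of batches 18, 19 and 21 and at 434, 514 and 396 CPM in HBM. The genotypes did not overlap, and the paired estimate was 1.47-fold of WT (log2 difference 0.56 ± 0.05, adjusted p = 0.0229; 1 unpaired). Sema3b stood at 129.5, 121 and 82.1 CPM in WT and 179, 177 and 107 CPM in HBM, overlapping between batches but higher in HBM within each. Its paired estimate was 1.38-fold of WT (0.46 ± 0.05, adjusted p = 0.0265).

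Sema3d stood at 34.6, 27.8 and 27.8 CPM in WT and 50.96, 46.1 and 36.4 CPM in HBM, without overlap. Its paired estimate was 1.47-fold of WT (0.56 ± 0.07, adjusted p = 0.039). Sema5a, a membrane semaphorin with thrombospondin repeats, stood at 25.3, 30.2 and 12.4 CPM in WT and 32.6, 35.5 and 15.9 CPM in HBM, with batch 21 low in both. Its paired estimate was 1.249-fold of WT (0.32 ± 0.05, adjusted p = 0.0463).

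The 3 members that were lower in HBM by the paired test were all plexins, but the 9 plexins did not move together. Without pairing, 5 of the 9 had a higher estimate in HBM and 4 a lower one, with a median log2 difference of 0.03. Plxna1, Plxna3 and Plxnb2 were higher in HBM within each of the 3 batches. Plxna4 stood at 6.94, 8.07 and 11.8 CPM in WT and 4.17, 4.37 and 6.37 CPM in HBM, without overlap, with a paired estimate of 0.559-fold of WT (log2 difference -0.84 ± 0.08, adjusted p = 0.0229). Plxna2 stood at 54.3, 41.2 and 70.7 CPM in WT and 42.5, 33.99 and 56.98 CPM in HBM, lower in HBM within each batch, with a paired estimate of 0.805-fold (-0.31 ± 0.04, adjusted p = 0.0353). Plxnd1 stood at 105, 129 and 105 CPM in WT and 82.4, 108 and 91.2 CPM in HBM, with a paired estimate of 0.827-fold (-0.27 ± 0.04, adjusted p = 0.0477). Just outside the threshold, Sema6c had a paired log2 difference of -0.30 ± 0.05 (adjusted p = 0.0542). Sema3a had 0.32 ± 0.09 (adjusted p = 0.136) and Sema4d 0.52 ± 0.12 (adjusted p = 0.11).

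**Figure D5:**
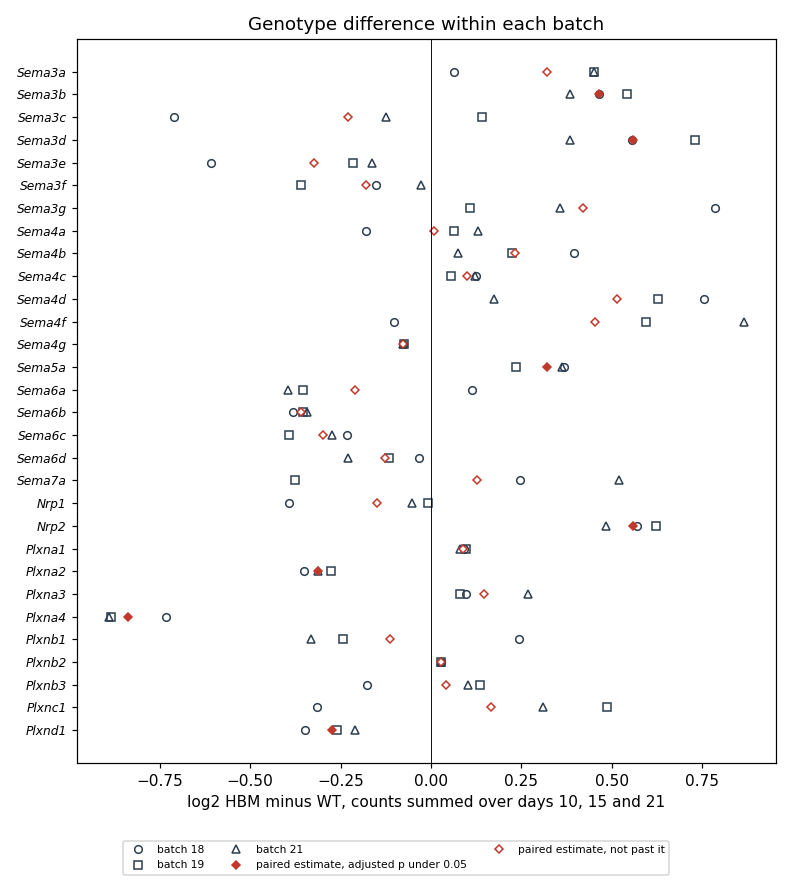
Open dark symbols are log2 HBM minus WT (x axis) within each of 3 batches, from counts summed over days 10, 15 and 21, for the 30 tested members, and red diamonds are paired estimates, filled where the adjusted p was under 0.05. Nrp2 (0.56) and Plxna4 (-0.84) have batches close together, whereas Sema3c runs from -0.71 to 0.14.

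Transcripts that mark the sex of the pooled animals differed between batches, and in some batches between genotypes. Xist, the transcript of the inactive X chromosome, reached at most 0.0328 CPM in batch 21. In batch 18 it ranged from 297 to 322 CPM (WT) and from 279 to 528 CPM (HBM), and in batch 19 from 18.05 to 41.7 CPM (WT) and from 177 to 246 CPM (HBM). Y-linked Ddx3y ranged from 21.5 to 32.6 CPM (WT) and from 12.1 to 18.2 CPM (HBM) in batch 18, from 22.2 to 62.8 CPM (WT) and from 33.5 to 48.1 CPM (HBM) in batch 19, and from 61.2 to 91.6 CPM (WT) and from 76.3 to 84.4 CPM (HBM) in batch 21. The genotypes thus did not overlap in Xist in batch 19 and in Ddx3y in batch 18. In batch 21, where Xist was at or near 0 in both genotypes, the log2 differences were 0.48 for Nrp2, 0.39 for Sema3b, 0.39 for Sema3d, 0.36 for Sema5a, -0.89 for Plxna4, -0.31 for Plxna2 and -0.21 for Plxnd1. These 7 members were called by a paired test that included batch 21, so their direction there was largely fixed in advance. The part of sex in the members' differences was not tested. The 7 osteoblast markers had a median log2 difference of 0.92 in the summed counts without pairing, with 7 of 7 higher in HBM. The macrophage markers were lower in HBM for 9 of 10 (median -0.11), the adipocyte markers for 8 of 8 (median -0.27) and the chondrocyte markers for 7 of 7 (median -0.69). The 7 calls come from the paired fit, where 1.65% of all genes were higher and 1.22% lower. In that fit 4 of 7 osteoblast markers passed as higher (median 1.011) and 1 of 7 chondrocyte markers as lower (median -0.52). No macrophage, adipocyte or osteoclast marker passed in it (medians -0.31, -0.85 and 0.08), and 1 of 7 tested neural and Schwann markers was higher (median -0.09). Their part in the members' differences was not tested.

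Whether the genotypes differed in the step from day 0 to day 10 was tested by the interaction of genotype and day. No member and 0% of all genes passed in edgeR, with or without a block, or in DESeq2, and 0 members had an unadjusted p under 0.05 without the block. For Sema3b the log2 difference between the steps was 1.08 ± 0.54 (adjusted p = 1), and 1.004 ± 0.17 with the batch term for each day (adjusted p = 0.161). For Sema3e it was -0.92 ± 1.18 (adjusted p = 1), and -1.08 ± 0.27 with the batch term (adjusted p = 0.255).

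Genes that carry the signal further were counted from 3 lists, to be read against the shares of all genes given above (12.1% rising and 14.0% falling in WT, 14.1% and 12.4% in HBM). Of 46 co-receptor partners and intracellular effectors, all tested, 3 rose and 8 fell from day 0 to day 10 in WT, and 6 rose and 13 fell in HBM, with medians of -0.20 and -0.10. The risers with the smallest adjusted p in both genotypes were Dpysl4, a collapsin response mediator (1.66 ± 0.27 in WT and 1.62 ± 0.27 in HBM), Chl1, an adhesion molecule that pairs with neuropilins (3.98 ± 0.83 and 3.93 ± 0.89), and Mst1r, a receptor kinase that associates with B plexins (1.68 ± 0.38 and 1.58 ± 0.37). Those that fell with the smallest adjusted p were Mical2, an actin-oxidising enzyme (-1.55 ± 0.23 and -1.38 ± 0.23), the hyaluronan receptor Cd44 (-1.31 ± 0.20 and -1.23 ± 0.20), and Farp1, a binding partner of class A plexins (-0.54 ± 0.11 and -0.996 ± 0.11). The fit that blocked on the culture gave 8 risers and 14 that fell in WT, where 19.6% and 18.8% of all genes did, and 8 and 17 in HBM, where 20.5% and 17.7% did. Between day 10 and day 21, and between the genotypes on single days, none of the 46 passed, and in the paired summed comparison (1.65% of all genes higher, 1.22% lower) Mical2 (0.64 ± 0.05, adjusted p = 0.0198), Farp2 (0.51 ± 0.06, adjusted p = 0.0298) and Cd44 (0.49 ± 0.08, adjusted p = 0.0446) were higher in HBM and none was lower.

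Of 6 growth factors that bind neuropilins or share their receptors, hepatocyte growth factor (Hgf, 2.04 ± 0.46, adjusted p = 0.00369) rose and placental growth factor (Pgf, -1.49 ± 0.53, adjusted p = 0.045) fell from day 0 to day 10 in WT. None of the 6 passed in HBM (Hgf 1.20 ± 0.45, adjusted p = 0.0558), and with the block 1 rose and 2 fell in each genotype. Hgf was lower in HBM in the paired summed comparison (-0.49 ± 0.06, adjusted p = 0.0389). Of 43 genes of the other guidance families, 39 were tested, and 11 rose and 3 fell in WT (12.1% and 14.0% of all genes) while 12 rose and 5 fell in HBM (14.1% and 12.4%), with medians of 0.64 and 0.49. The smallest adjusted p among risers were those of Ntn5 (4.94 ± 0.57), Rgma (1.57 ± 0.20) and Efnb3 (2.42 ± 0.36) in WT, and of Ntn5 (5.04 ± 0.58), Robo2 (3.75 ± 0.62) and Rgma (1.13 ± 0.20) in HBM. Among those that fell they were Epha2 (-1.10 ± 0.18), Unc5b (-1.46 ± 0.33) and Unc5a (-0.46 ± 0.16) in WT, and Epha2 (-0.80 ± 0.18), Ephb2 (-0.52 ± 0.13) and Efnb2 (-0.64 ± 0.20) in HBM. With the block, 19 rose and 3 fell in WT (19.6% and 18.8% of all genes) and 17 rose and 5 fell in HBM (20.5% and 17.7%). Between the genotypes on single days, none of the 39 passed without the block. With it 1 was higher and 2 lower in HBM at day 10 (1.29% of all genes passed), 2 were higher at day 15 (0.307%) and 2 at day 21 (0.247%). In the paired summed comparison, where 1.65% of all genes were higher and 1.22% lower, 2 of 40 were higher in HBM, Unc5b (0.65 ± 0.05, adjusted p = 0.0192) and Epha2 (0.45 ± 0.04, adjusted p = 0.0207), and 6 were lower, the 3 with the smallest adjusted p being Efnb3 (-0.97 ± 0.12), Efnb2 (-0.49 ± 0.07) and Epha7 (-0.68 ± 0.10).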

How the data were processed

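Polyadenylated RNA of 24 libraries was analysed from the deposited table, which holds counts of reads per gene. The submitters' processing notes name build mm10 and, with no order, featureCounts, Subread 2.0.1, STAR 2.7.8a and cutadapt 3.4. Neither the annotation release nor the strand setting is given in the sources used here, so reads of overlapping genes on opposite strands cannot be told apart. Of 54232 identifiers, 54164 matched GENCODE M21, and the 68 others held at most 0.00337% of a library's counts. All 24 columns were used. Column totals bound the counting precision, and the error used was the spread between cultures, which may be partly technical.

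Counts were fitted in R 4.3.3 with edgeR 4.0.16: TMM scaling (factors 0.866 to 1.11), the edgeR filter on low counts (16592 genes), 1 robust quasi-likelihood model of the 8 groups, and Benjamini-Hochberg adjustment over all genes with a threshold of 0.05. Errors of log2 changes are standard errors. The genotypes were also compared on counts summed over days 10, 15 and 21 of each culture (17728 genes). Levels are CPM by the TMM library size. Differences within a batch used a prior count of 0.5. DESeq2 1.42.0 was an alternative, as were RLE size factors, no filter, the compared groups alone, leaving out each library, and a block. Leaving out a whole batch, also with the block on the summed counts, was added after seeing the data. Where 1 library was left of a pair or block, the spread was that pooled over the other groups.

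The labels give a batch tag. WT and HBM libraries of a batch correlated on each day in their deviations from the group means (r from 0.62 to 0.865 across genes, other numbers at most 0.177), so the numbers pair the genotypes. Deviations from a mean of 3 libraries lower the correlation with other numbers by construction. Days of a culture correlated at 0.256 to 0.462 (days 0 and 10) and 0.443 to 0.815 (days 10 and 21). Days were not compared across genotypes of a batch, so a culture is not told apart from its batch. The block was a batch term per day for genotype comparisons on single days and the interaction, the culture for changes with time, and the batch for summed counts. Without a block, genes varied with a biological coefficient of 0.327, against 0.131 with the batch term per day.

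Members and lists were chosen with earlier results of these data known. Members past the threshold in either fit, plus Sema3a, Sema4d, Sema7a, Nrp1, Plxna1, Plxnb1 and Sema3e, were named with the value in each library compared. Partner lists were counted, and the 3 smallest adjusted p in each direction named. On simulated counts of the day 0 to 10 comparison in WT (16219 genes), the model without a block recovered 11% of genes changed by 2-fold and 84% by 4-fold. Promoter sequences are from RefSeq (GRCm38.p6), where 26 members had an entry that could be used.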

Additional observations from a re-analysis of the deposited data

Results flagged for a closer look

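A search took every pair of days in the 30 tested members and was not run on all genes. It asked for genotype differences on opposite sides of 0 in all 3 batches, with a mean of at least 0.25 log2 on both sides. Sema3b met it between day 0 and days 10, 15 and 21, and Sema3e between day 0 and days 10 and 15. No share of all genes is given, so these hits cannot be read as a trait of Sema3b and Sema3e. For Sema3b the mean log2 difference of HBM minus WT within batches was -0.54 at day 0 (-0.59, -0.51 and -0.51 in batches 18, 19 and 21). It was 0.47 at day 10 (0.54, 0.84 and 0.02), 0.56 at day 15 and 0.28 at day 21. For Sema3e it was 0.62 at day 0 (0.18, 1.06 and 0.63) and -0.47 at day 10 (-0.69, -0.41 and -0.32), and -0.42 at day 15. At day 21 Sema3e stood at -0.29, 0.94 and 0.35 (mean 0.33), on the day 0 side in 2 of 3 batches. The difference between day 0 and day 10 is the interaction tested above, which did not pass for either gene (adjusted p = 0.161 for Sema3b and 0.255 for Sema3e in edgeR with the batch term, and 1 for both without it). The differences between day 0 and days 15 and 21 were not tested.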

How the results depend on the processing

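The count of members called from day 0 to day 10 was 13 in WT and 15 in HBM. In WT it was 4 when the compared groups were fitted alone, 4 without batch 18, 5 without batch 19 and 20 without batch 21, and in HBM 6 without batch 18 and 8 without batch 19. Leaving out single libraries gave 9 to 18 calls in WT and 9 to 14 in HBM, the 9 in HBM without HBM day 10 batch 19. The other settings (no filter, RLE size factors, DESeq2, the block on the culture) stayed within 1.5 times of these counts, and the block gave 16 in WT and 17 in HBM. With the batch as a replicate block, 7 members passed between the genotypes in the summed counts against 0 without it, 8 with batch 18 left out and 0 with batch 19 or batch 21 left out. The block changed no other count of family members between the genotypes. For fits that drop libraries or batches, or that take the compared groups alone, no share of all genes is given. Their counts show how calls depend on the fit and not a trait of the members. For the single genes named in a comparison, 553 alternative values were computed: 433 kept their side of the threshold, 98 lost the call, 22 gained it and 0 changed direction. Rare members such as Plxnb3, Sema3g and Sema4a are limited by counts. In simulated counts, 2-fold changes were recovered in 11% of genes from day 0 to 10 in WT without a block and in 77% with the culture as a term. These 2 shares come from different simulated counts, with a lower residual spread set for the culture term, so they do not measure the gain from the block. Between the genotypes at day 10 the batch term per day recovered 81%, and the fit without it 0% on the same counts. A batch shift shared by WT and HBM had been put into these counts, so the gap was built in. It does not measure the gain from the batch term in these data. The summed counts with the batch term gave 99%. There the days of a culture were drawn as independent, whereas in the data days 10 and 21 correlated (r from 0.443 to 0.815). The 99% therefore cannot be carried over to these data.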
